A study of Mus musculus with 6 samples.

Results

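Ribosome biogenesis factors are the proteins that transcribe, modify, cut and fold ribosomal RNA and load it with ribosomal proteins in the nucleolus. A list of 32 such genes was followed in blood stem and progenitor cells of control and Med12-deficient mice. The members were all 65 probe sets that the platform annotation gave to exactly 1 of the 32 symbols, of 45037 probe sets measured. A probe set is a group of short array probes that reads 1 transcript. Where a gene had several, its brightest probe set over the 6 arrays stood for it, which gave 18193 genes in all.

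The cells were sorted from bone marrow as lineage negative, c-Kit positive and Sca1 positive cells (HSPCs), a gate that holds stem cells and multipotent progenitors. The labels name 2 groups of 3 arrays each, HSPC_control and HSPC_Med12 KO. The knockout mice were Med12Flox;MxCre, with a floxed Med12 allele and a Cre recombinase driven by the interferon-responsive Mx promoter. Cells of both groups were collected 4 days after pI:pC, a double-stranded RNA that induces interferon, and all samples were of a B6/129 background. The labels give neither the genotype of the controls nor whether they carried Cre, nor the age of the animals. Mx-Cre acts in many interferon-responsive cells, so deletion was not restricted to the sorted population. Nothing in the labels says that each array came from a separate animal, so the p-values reflect no more than the spread among these 6 samples, which may be technical.

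The values are linear signals that had been scaled to the same trimmed mean of 150 on every array, so an overall change in RNA per cell cannot be seen. The median signal of an array was 26.7 to 26.9 in controls and 16.6 to 21.3 in knockouts. Med12, whose protein belongs to the kinase module of Mediator, a transcriptional coactivator, had signals of 278.6, 837.4 and 441.6 in controls and 89.1, 100.4 and 86.4 in knockouts (log2 difference -2.17, limma adjusted p = 0.0796). Its single probe set checks the labels only if it lies in the deleted part, which is not known here. Kit, a gene of the sort gate, had signals of 805.2, 1014.6 and 1425.4 in controls and 514.8, 556.2 and 617.5 in knockouts. All knockouts lay below all controls, with a ratio of 0.52 (log2 -0.89, SE 0.23, limma adjusted p = 0.152, unadjusted p = 0.00816). Sca1 was not analysed here. The 6 measured markers of mature B and T cells had mean signals of 5.25 to 34.4.

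Making a ribosome begins with RNA polymerase I, which transcribes one long precursor RNA in the nucleolus. Small nucleolar ribonucleoproteins (snoRNPs) then guide methylation and pseudouridylation of that RNA, and large assembly complexes cut it and build the small and the large subunit separately. Expression of these genes is known to follow growth and division and to respond to the transcription factor MYC. Blood stem cells are known to keep protein synthesis low, and progenitors that are about to divide make more ribosomes.

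Many ribosome biogenesis factors had somewhat higher signal in Med12 knockouts, but no single gene passed the test across all probe sets. Of the 32 genes, 28 had a higher mean log2 signal in knockouts and 4 a lower one, where 42.2% of all genes were higher. The differences ran from -0.10 to 1.31 on the log2(signal + 16) scale. The median difference was 0.34, against -0.05 over all 18193 genes. In 16 of the 32, all 3 knockout signals lay above all 3 control signals, and in 0 they lay below. The same complete separation held for 9.85% of all genes upward and 13.6% downward. The arrays were uneven: knockout replicate 3 gave the highest of the 6 signals for 19 of the 32 genes.

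In limma's test with Benjamini-Hochberg adjustment over all probe sets, 0 of the 32 genes passed the threshold of 0.05 in either direction, where 0.352% of all genes passed as higher and 0.638% as lower. At an unadjusted p under 0.05 the count was 12 higher and 0 lower, against 7.84% of all genes higher and 10.3% lower. The lowest adjusted p was 0.0721, for Nolc1. The count of 12 went to 7 without knockout replicate 3 and to 5 without knockout replicate 2, while the median difference stayed at 0.31 and 0.42. Over all probe sets, in either direction, the count at that level went from 7067 to 5340 and 6029. The probe sets that stood for the 32 genes, the brightest of each, had mean signals of 127 to 3952. Of all 65 probe sets, 6 had mean signals under 16. Brighter genes in general leaned upward here. A comparison with the 7280 genes at least as bright as the dimmest of the 32 was added after the values were seen. Among these 7280 genes the median was 0.07 and 56.2% were higher. An unadjusted p under 0.05 as higher was found for 15.0%, and 18.4% were completely separated upward.

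Scaling of the arrays bears on these counts. Centring each array on its median moved the median of all genes from -0.05 to 0.22, and then all 32 members were higher, 23 were separated upward (27.6% of all genes) and the member median was 0.62. After quantile normalization 29 members were higher and 15 separated (12.2% of all genes), and after loess normalization 28 and 14 (11.1%). The median of all genes was 0.02 after quantile and 0.0 after loess normalization. The median of members less that of all genes was 0.40 as deposited, 0.40 after centring and 0.32 after either of the other methods. As deposited, the member median of an array less its median of all genes had an SD between replicates of 0.35.

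**Figure D1:**
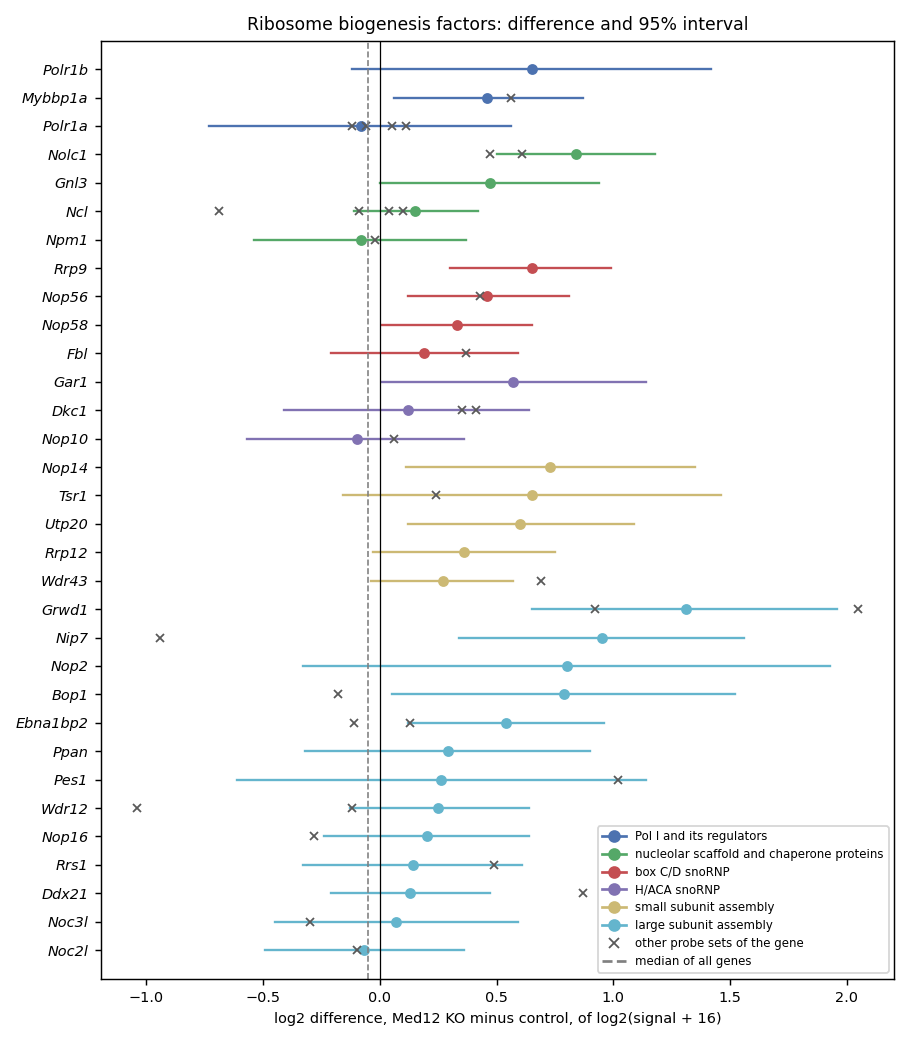
Log2 difference between Med12 KO and control (x axis, of log2(signal + 16)) for each of the 32 genes (y axis), coloured by role, with limma's 95% interval as a bar; crosses are the other probe sets of the same gene and the dashed line is the median of all genes at -0.05. Of the filled points 28 lie above 0, Grwd1 is the highest at 1.31, and crosses for Nip7, Wdr12 and Ncl lie far to the left of their filled point.

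**Figure D2:**
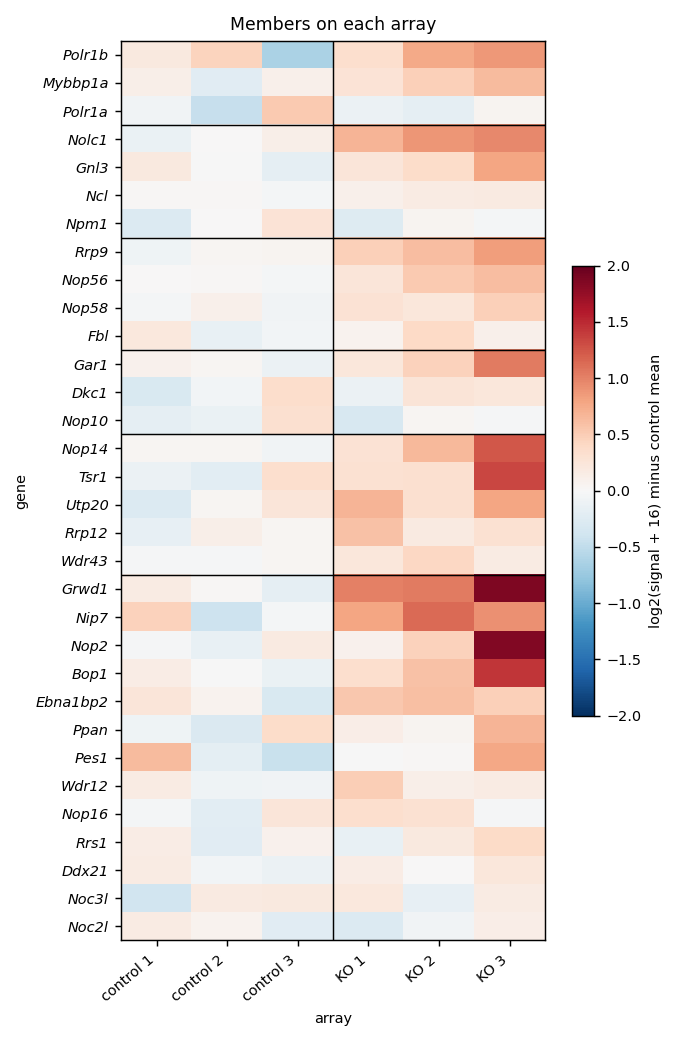
Each cell of the grid is 1 gene (rows, by role) on 1 array (columns), coloured by log2(signal + 16) minus that gene's control mean. The knockout columns are mostly red, and knockout replicate 3 holds the highest of the 6 signals for 19 genes.

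The promoters of these genes were examined because MYC and its partner MAX bind the palindrome CACGTG, the E-box, which reads the same on both strands. RefSeq windows (GRCm38.p6) of 300 bases, with 250 before a start site and 50 from it on, were found for 27 of the 32 members. CACGTG occurred in 7 of the 27 (25.9%), against 10.2% of the 14452 array genes with such a window. The ETS core CGGAAG, searched on both strands, occurred in 16 of the 27 (59.3%), against 27.1% of those genes. The palindrome of the factor NRF1 was in 0 of the 27 windows and in those of 1.75% of array genes. Among 106 other ribosome biogenesis genes with a window, 19.8% held the E-box, 65.1% the ETS word and 2.83% the NRF1 palindrome. The letters of the E-box and ETS words cannot share a base. These are descriptions of letters in a window and not of binding. The 7 E-box windows are shown here because they name the members that share this word, each as 30 bases on the gene's own strand with the E-box in capitals.
Nop2: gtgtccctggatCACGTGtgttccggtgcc
Grwd1: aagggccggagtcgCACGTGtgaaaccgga
Utp20: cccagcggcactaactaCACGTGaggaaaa
Pes1: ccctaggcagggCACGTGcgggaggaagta
Mybbp1a: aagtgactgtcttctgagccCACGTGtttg
Tsr1: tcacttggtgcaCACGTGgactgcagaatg
Wdr43: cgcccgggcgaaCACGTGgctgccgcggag

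In Nop2 (chr6:125131811-125131840, + strand) the E-box begins 60 bases before the start site. In the other 6 it begins after the start, whose first base is counted as 1. It begins at base 3 in Pes1 (chr11:3963965-3963994, +), 18 in Wdr43 (chr17:71616220-71616249, +) and 25 in Tsr1 (chr11:74898092-74898121, +). It begins at base 35 in Grwd1 (chr7:45830740-45830769, - strand), 38 in Utp20 (chr10:88826765-88826794, -) and 41 in Mybbp1a (chr11:72441347-72441376, +). The start used for Grwd1 lies 205 bases, and that for Wdr43 37 bases, inside the gene's full RefSeq span. All 7 genes had higher signal in knockouts, with a median log2 difference of 0.60 (0.26 to 1.31). The 20 members whose windows lacked the word had a median of 0.31 (-0.10 to 0.95), and 17 of them were higher. The 2 ranges overlap, and no test was made of genes chosen in this way. The higher median of the 7 leaned on knockout replicate 3. Without that array they gave 1.02 (Grwd1), 0.51 (Utp20), 0.38 (Mybbp1a), 0.32 (Wdr43), 0.31 (Tsr1), 0.27 (Nop2) and 0.01 (Pes1). The median over all 32 members was then 0.31, and the 20 without the word ran from -0.17 (Noc2l) to 0.96 (Nip7).

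The log2 differences of the 3 genes of RNA polymerase I and its regulators ran from -0.08 to 0.65. Their 95% intervals overlapped, and no test was made between genes. Polr1b, the second largest catalytic subunit, had signals of 137.0, 166.9 and 70.5 in controls and 154.0, 210.3 and 227.8 in knockouts. The groups overlapped, with control replicate 3 well below the rest (log2 0.65, SE 0.31, adjusted p = 0.394, or log2 0.33 without that array). Polr1a, the largest subunit, read 220.8, 165.6 and 342.8 in controls and 213.2, 203.5 and 242.3 in knockouts. Its control values spanned the whole knockout range, and its log2 difference of -0.08 (95% interval -0.73 to 0.56) turned to 0.19 after median centring and to 0.18 without control replicate 3. The other 4 Polr1a probe sets lay between -0.12 and 0.11, 2 of them with mean signals under 16. Mybbp1a, a nucleolar MYB-binding protein that regulates rRNA synthesis and one of the E-box genes shown above, had 1376.6, 1089.6 and 1373.1 in controls and 1539.9, 1784.7 and 1990.8 in knockouts. Every knockout array was above every control array (log2 0.46, SE 0.16, adjusted p = 0.256), and its second probe set gave 0.56 with the same separation.

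Among the nucleolar scaffold and chaperone proteins, Nolc1 was the member of lowest p in the whole list. Nolc1 (Nopp140) is a phosphoprotein that chaperones snoRNPs within the nucleolus. Its signals were 616.4, 682.3 and 732.5 in controls and 1090.7, 1257.1 and 1330.4 in knockouts, or means of 677 ± 58.2 and 1226 ± 123 (SD, n = 3 each). The lowest knockout value exceeded the highest control value by a wide margin. The log2 difference was 0.84 (SE 0.14, 95% interval 0.50 to 1.18, adjusted p = 0.0721). The other 2 probe sets, at 0.47 and 0.61, were also fully separated. Nolc1 passed the threshold after median centring (log2 1.11, adjusted p = 0.0441). Across the alternative settings its adjusted p lay between 0.0441 and 0.262. The 250 bases before its start site (chr19:46075597-46075846, + strand, RefSeq GRCm38.p6) are shown because it is the member with the lowest p, with the ETS word in capitals near the end, and hold no E-box.
Nolc1: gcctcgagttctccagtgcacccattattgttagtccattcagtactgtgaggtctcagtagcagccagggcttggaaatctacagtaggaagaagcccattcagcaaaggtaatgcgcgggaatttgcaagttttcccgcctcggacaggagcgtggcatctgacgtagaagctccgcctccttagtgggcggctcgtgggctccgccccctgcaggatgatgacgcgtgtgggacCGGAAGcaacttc

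Nucleolin and nucleophosmin differed little between groups. Ncl, or nucleolin, an RNA-binding protein of the nucleolus, had 2583.1, 2565.7 and 2454.5 in controls and 2716.0, 2854.8 and 2882.3 in knockouts. These groups did not overlap, yet the log2 difference was only 0.15 (95% interval -0.11 to 0.42, adjusted p = 0.574). Its 5 probe sets did not share a sign: 3 others lay between -0.09 and 0.10, and the fifth, at -0.69, had 1 low array, knockout replicate 3 (205.8, against 624.6 and 707.2 in the other knockouts and 660.2 to 910.5 in controls). The mean of all 5 was -0.10. Npm1, nucleophosmin, a histone chaperone and shuttle for ribosomal particles, had 3320.8, 4046.4 and 4881.2 in controls and 3360.5, 4195.4 and 3905.5 in knockouts. The groups overlapped fully (log2 -0.08, 95% interval -0.54 to 0.37), and the sign turned under 4 settings, to 0.19 after median centring and 0.10 after quantile normalization among them. Gnl3, nucleostemin, a nucleolar GTPase of proliferating and stem cells, had 915.1, 790.8 and 698.3 in controls and 946.9, 1036.6 and 1381.6 in knockouts. Its groups were separated, though control replicate 1 and knockout replicate 1 lay close together (log2 0.47, SE 0.19, adjusted p = 0.321, or log2 0.31 without knockout replicate 3).

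All 4 box C/D snoRNP genes were higher in knockouts. Nop56, Nop58 and Fbl belong to particles that methylate ribosomal RNA at sites chosen by guide RNAs. Rrp9, which binds the U3 snoRNA needed for the first cuts of the precursor, had 128.1, 140.9 and 144.0 in controls and 198.2, 220.0 and 258.7 in knockouts. The controls were tight and all knockouts stood above them (log2 0.65, SE 0.14, 95% interval 0.30 to 0.99, adjusted p = 0.114). Nop56, a core scaffold of the particle, had 1125.2, 1148.1 and 1099.1 against 1335.5, 1628.6 and 1730.7, again without overlap (log2 0.46, adjusted p = 0.202). A second Nop56 probe set gave 0.43. Nop58, its partner in the scaffold, had 1005.1, 1114.7 and 986.9 in controls and 1263.7, 1214.0 and 1444.8 in knockouts. These were separated too, by a smaller amount (log2 0.33, SE 0.13, adjusted p = 0.302). Fbl, fibrillarin, the methyltransferase itself, had 1761.7, 1378.3 and 1463.5 against 1594.7, 2022.2 and 1634.8. The groups overlapped at this probe set, where control replicate 1 was high (log2 0.19, adjusted p = 0.651), whereas the dimmer Fbl probe set was separated (log2 0.37, adjusted p = 0.275).

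The 3 H/ACA genes, which encode the pseudouridine-forming snoRNP, had log2 differences from -0.10 to 0.57. Their 95% intervals overlapped, and no test was made between genes. Gar1, a small glycine- and arginine-rich core protein, had 1177.6, 1136.0 and 1021.6 in controls and 1299.1, 1530.9 and 2301.0 in knockouts. All knockouts were higher, with replicate 3 far above the others (log2 0.57, SE 0.23, adjusted p = 0.312, or log2 0.34 without that array). Dkc1, dyskerin, the pseudouridine synthase that also stabilises telomerase RNA, had 2217.3, 2645.9 and 3512.7 against 2515.3, 3265.4 and 3205.0. Its highest signal came from a control, the log2 difference was 0.12 (95% interval -0.41 to 0.64), and it was -0.04 without control replicate 1. The 2 dimmer Dkc1 probe sets gave 0.35 and 0.41, the latter without overlap between groups. Nop10, the smallest core protein, had 2787.5, 2902.1 and 3950.6 in controls and 2532.9, 3262.9 and 3121.2 in knockouts. The groups overlapped (log2 -0.10, 95% interval -0.57 to 0.36), the second probe set gave 0.06, and the sign turned to 0.17 after median centring.

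Small subunit assembly factors were higher in all 5 cases, with a median log2 difference of 0.60. Utp20, a very large scaffold of the small subunit processome, had 176.5, 223.6 and 258.1 in controls and 359.1, 276.3 and 388.2 in knockouts. The groups were separated, narrowly at knockout replicate 2 (log2 0.60, SE 0.20, adjusted p = 0.230). Nop14, another processome protein, had 209.0, 209.3 and 191.8 against 251.4, 329.3 and 503.4. Controls hardly varied and the knockouts spread widely above them (log2 0.73, SE 0.25, adjusted p = 0.251, or log2 0.47 without knockout replicate 3). Rrp12, which helps pre-ribosomes leave the nucleus, had 95.2, 119.5 and 112.2 against 170.2, 124.7 and 138.4, separated by a small gap (log2 0.36, adjusted p = 0.359).

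The other small subunit factors, like Utp20, had the E-box windows printed above. Wdr43, a processome WD-repeat protein, had 469.5, 468.6 and 491.8 in controls and 561.6, 640.0 and 533.3 in knockouts. Separation was complete but the shift small (log2 0.27, SE 0.12, adjusted p = 0.374), and the second probe set at 0.69 overlapped. Tsr1, a late factor of pre-40S particles, had 531.8, 497.6 and 736.0 against 721.3, 725.8 and 1488.0. Knockout replicate 3 alone was far above the controls, and without it the log2 difference went from 0.65 (adjusted p = 0.415) to 0.31. Its second probe set gave 0.24.

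Large subunit factors formed the widest range, from -0.07 to 1.31, with 12 of 13 genes higher. Grwd1, a WD-repeat chaperone for ribosomal protein L3, had the largest difference of the whole list. Its signals were 351.6, 315.7 and 273.6 in controls and 647.0, 655.3 and 1182.5 in knockouts, means of 314 ± 39.0 and 828 ± 307 (SD, n = 3 each), a ratio of 2.64. All knockouts lay far above all controls (log2 1.31, SE 0.27, 95% interval 0.65 to 1.96, adjusted p = 0.102). It was still 1.02 without knockout replicate 3. Its adjusted p lay between 0.0556 and 0.216 across the alternative settings. The other probe sets agreed in sign and separation, at 2.05 and 0.92. Its promoter window held both the E-box and 2 ETS words.

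Nip7, which acts in processing of the large subunit precursor RNA, had 416.7, 218.3 and 287.6 in controls and 525.1, 670.3 and 576.6 in knockouts. That separation was clear (log2 0.95, SE 0.25, 95% interval 0.34 to 1.56, adjusted p = 0.158). Its second probe set went the other way, with 285.1, 256.2 and 106.5 against 127.2, 73.5 and 94.4 (log2 -0.94, adjusted p = 0.321). With both probe sets averaged, the log2 difference of Nip7 was 0.00. Wdr12 showed the same split. It belongs to the PeBoW complex (Pes1, Bop1 and Wdr12), which is needed for maturation of the large subunit RNAs. The bright probe set of Wdr12 had 889.8, 751.0 and 754.8 against 1120.8, 861.2 and 896.2 (log2 0.25, adjusted p = 0.504). A dimmer one had 163.9, 188.7 and 118.3 against 103.4, 72 and 38.4, with all knockouts below all controls (log2 -1.04, SE 0.33, adjusted p = 0.212). This was the only one of the 65 probe sets separated downward, against 13.3% of all probe sets. The third Wdr12 probe set had at most 8.2 on any array.

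The other PeBoW members were higher but uneven between arrays. Bop1 had 322.3, 286.2 and 260.5 in controls and 369.9, 441.4 and 806.8 in knockouts. Knockout replicate 3 stood far above the rest (log2 0.79, SE 0.30, adjusted p = 0.288, or log2 0.46 without it), and the second Bop1 probe set read at most 6.9 on any array. Pes1 had 507.3, 276.9 and 231.2 against 317.5, 324.8 and 558.8. The groups overlapped, with control replicate 1 high (log2 0.26, 95% interval -0.61 to 1.14), the difference was 0.01 without knockout replicate 3, and a dimmer probe set gave 1.02 (adjusted p = 0.324).

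Ebna1bp2, a binding partner of the viral protein EBNA1 and an early large subunit factor, had 523.9, 463.5 and 353.2 in controls and 645.9, 677.1 and 622.4 in knockouts. All 3 knockouts were close together and above the controls (log2 0.54, SE 0.17, adjusted p = 0.218), and its 2 other probe sets had mean signals under 16. Nop2, a cytosine methyltransferase of the large subunit RNA, had 374.4, 341.2 and 434.0 against 403.8, 533.0 and 1418.2. Its log2 difference of 0.80 (95% interval -0.33 to 1.93, adjusted p = 0.477) rested on knockout replicate 3 and was 0.27 without it. Ddx21, a DEAD-box helicase that links polymerase I and RNA processing, had 1610.3, 1380.1 and 1317.0 against 1593.8, 1431.6 and 1682.8 at its brighter probe set, with overlap (log2 0.13, adjusted p = 0.726). The dimmer Ddx21 probe set was separated, with 416.3, 445.2 and 561.3 in controls and 743.5, 948.9 and 952.6 in knockouts (log2 0.87, SE 0.18, adjusted p = 0.0996).

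The remaining 5 large subunit factors overlapped between groups. Ppan, which acts in early pre-60S particles, ranged from 222.2 to 359.3 in controls and from 284.0 to 447.0 in knockouts (log2 0.29, or 0.10 without knockout replicate 3). Rrs1, which helps bring the 5S particle into the large subunit, ranged from 1117.8 to 1462.1 and from 1181.6 to 1713.8 (log2 0.14), and its dimmer probe set gave 0.49. Nop16, a nucleolar pre-60S protein, had 301.5, 263.9 and 370.5 against 393.4, 385.1 and 302.8 (log2 0.20), and its second probe set gave -0.28. None of these differences exceeded the spread between replicates. Noc3l, which escorts pre-60S particles to the nucleoplasm, had 138.8, 212.9 and 214.6 against 218.0, 163.6 and 210.2 (log2 0.07), with -0.30 at its second probe set. Noc2l, its partner, had 724.3, 681.1 and 547.4 against 530.7, 616.7 and 714.1 (log2 -0.07), and -0.10 at the second. The sign of Noc2l turned to 0.21 after median centring.

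**Figure D3:**
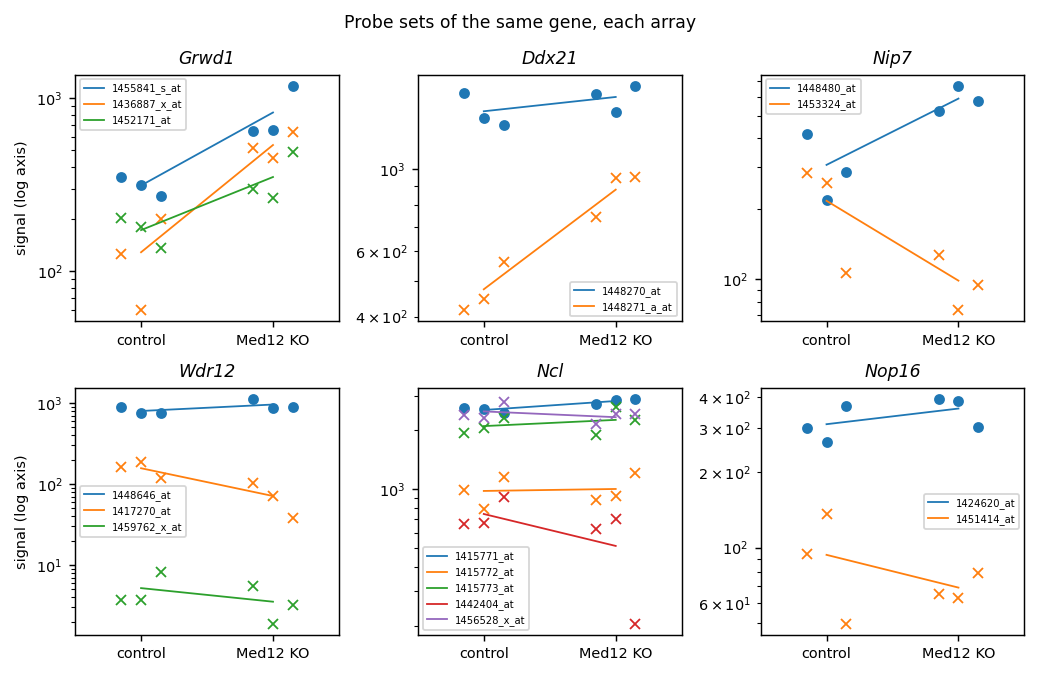
Signal (y axis, log scale) of every probe set of Grwd1, Ddx21, Nip7, Wdr12, Ncl and Nop16 on each control and Med12 KO array; circles mark the brightest probe set, crosses the others, and lines join the group means. The 3 Grwd1 probe sets go up together, whereas the 2 of Nip7 part, at 0.95 and -0.94 on the log2 scale.

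Several probe sets measured 22 of the 32 genes, and all shared a sign in 13 of these and differed in 9. Of the 65 probe sets, 48 were higher and 17 lower in knockouts, against 38.8% of all probe sets higher. At an unadjusted p under 0.05, 20 were higher and 1 lower, against 5.81% and 9.89% of all probe sets. Of the 65, 25 were separated upward against 7.61% of all probe sets, and 0 passed the adjusted threshold, against 0.762% of all probe sets. The platform marks 8 of the 65 with the suffix _s_at and 6 with _x_at, which can also read similar transcripts, the representative probe sets of Grwd1, Nop56, Gar1, Dkc1, Tsr1, Fbl and Rrs1 among them. The position of the diverging probe sets within their transcripts was not examined.

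Other genes of the pathway were taken from 5 lists by function. Of 128 listed, 124 were measured: 99 were higher and 25 lower, where 42.2% of all genes were higher. By limma's adjusted test 0 passed, against 0.352% of all genes as higher and 0.638% as lower. At an unadjusted p under 0.05, 33 were higher and 1 lower, against 7.84% and 10.3% of all genes. Their median was 0.34, and 41 (33.1%) were separated upward against 9.85% of all genes. The small subunit list had 40 of 46 higher (median 0.48), the snoRNP list 10 of 10 (0.42), the exosome and nuclease list 12 of 13 (0.57) and the large subunit list 30 of 41 (0.28). In the list of other polymerase I genes only 7 of 14 were higher, with 1 separated upward.

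Examples follow the lowest unadjusted p in each list. Ddx10, a processome helicase, had 146.0, 168.3 and 139.9 in controls and 282.1, 359.6 and 271.1 in knockouts (log2 0.93, adjusted p = 0.0751), and Ltv1, a pre-40S export factor, gave 0.95 (adjusted p = 0.0752). Both were fully separated. Ddx55 (0.98, adjusted p = 0.0953) and Brix1 (0.61, 0.135) led the large subunit list, Pih1d1 (0.73, 0.149) and Nhp2 (0.41, 0.236) the snoRNP list, and Exosc8 (0.79, 0.187) and Mphosph6 (0.57, 0.251) the exosome list. Of the polymerase I genes, Polr1e had 205.0, 131.5 and 133.5 against 272.7, 273.5 and 400.8 (0.95, 0.146). Taf1b, a subunit of its initiation factor, had 219.0, 228.5 and 3420 in controls and 103.7, 174.7 and 127.0 in knockouts. All knockouts lay below all controls, and the high value of control replicate 3 enlarged the difference (log2 -1.97, adjusted p = 0.447).

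**Figure D4:**
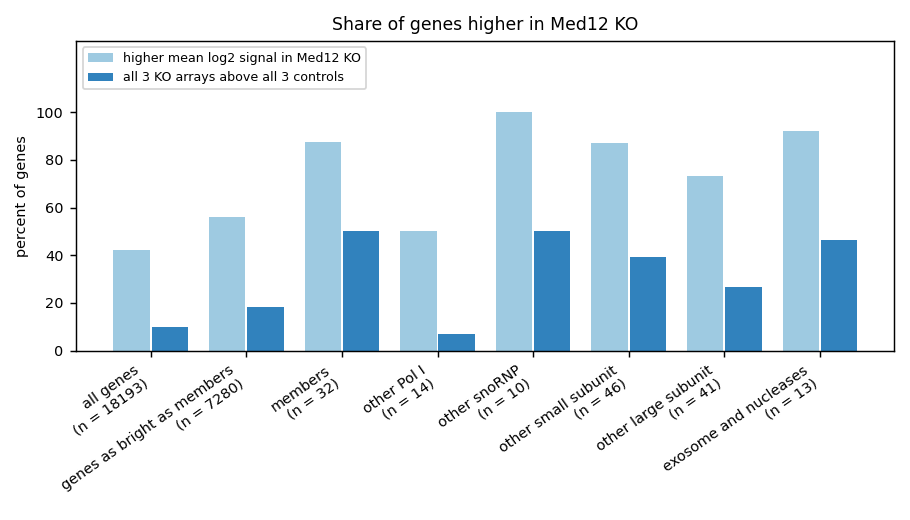
Percent of genes (y axis) with higher mean log2 signal in Med12 KO (light bars) and with all 3 KO arrays above all 3 controls (dark bars), for all genes, for genes at least as bright as the dimmest member, for the 32 members and for 5 other lists. Members stand at 87.5% and 50%, all genes at 42.2% and 9.85%, and other polymerase I genes at 50% and 7.14%.

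Regulators of ribosome synthesis formed a separate list. Of 8 measured, 6 were lower and 2 higher, 0 passed the adjusted threshold, and 4 were lower and fully separated, as were 13.6% of all genes. Mxd4, a MAX partner that opposes MYC, had 1336.8, 1049.0 and 1041.2 in controls and 568.0, 410.6 and 412.4 in knockouts (log2 -1.28, SE 0.19, adjusted p = 0.0560). Rptor, the scaffold of the growth-promoting mTORC1 kinase, gave -0.95 (adjusted p = 0.0992). Myc itself, named after its values were seen, had 1513.3, 1858.4 and 2226.3 against 1353.2, 1410.6 and 1283.2, with all knockouts below all controls (log2 -0.45, SE 0.17, adjusted p = 0.291).

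Marker genes of other blood cell types moved with the groups. Of 10 erythroid markers measured 7 rose by limma's adjusted test, and their summed signal was 1949 to 2457 in controls and 6091 to 9877 in knockouts, where 0.352% of all genes passed as higher. Hba-a1, a globin of mature red cells, was at 0.6 to 2.5 on every array at the probe set used. Probe sets given several symbols were left out, so whether globin RNA was present cannot be told from this value. Slc4a1, the anion exchanger of the red cell membrane, went the other way, with 23.2, 185.8 and 69.3 in controls and 11.8, 13.9 and 13.2 in knockouts (log2 -1.60, SE 0.57, adjusted p = 0.260). Of 6 granulocyte-monocyte markers 5 fell by limma's adjusted test (sum 7612 to 13999, then 646 to 1545), where 0.638% of all genes passed as lower. So did 4 of 7 early lymphoid markers (4252 to 5301, then 171 to 327), and all 7 were lower and separated downward. By the same test 1 of 6 megakaryocyte markers rose (3321 to 4934, then 5415 to 6844). All 6 were higher, and 3 of them were separated upward. Of 6 stem cell markers 1 fell by that test (1928 to 3308, then 1261 to 1594), while 5 were lower and 2 of them separated downward. Complete separation held for 9.85% of all genes upward and 13.6% downward. Of 6 mature B and T cell, 7 mature myeloid and 7 stroma and endothelium markers, 0 passed; their sums were 104 to 181, 338 to 673 and 589 to 784 in controls and 42.2 to 76.6, 77.7 to 309 and 292 to 398 in knockouts. None of these marker calls held without knockout replicate 1 or without knockout replicate 3, where limma called 0 of 45037 probe sets, with 6219 and 5340 at an unadjusted p under 0.05. The part of these shifts in the ribosome biogenesis values was not tested. In such bulk samples fewer cells of a type and less RNA per cell cannot be told apart.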

How the data were processed

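HSPC RNA was amplified (NuGEN Ovation) and biotin-labelled, per the labels' protocols. The authors deposited 1 signal intensity per probe set on 6 arrays. The submitters' processing notes name RMA, but the deposited values are linear, run from 0 to 11133.8 and share a trimmed mean (2% off each end), so their method is not known here. Genome build and aligner do not apply to this array table.

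Of 45101 probe sets, 64 controls were left out. Signals were taken as log2(signal + 16), a scale on which folds of dim genes come out too small; printed means and SDs are of the deposited signals. The 2016 platform annotation gave 34945 probe sets 1 symbol, 932 several and 9160 none; 189 of 200 list entries matched, 4 by another symbol, and Nhp2l1, Mrto4, Npm3 and Trp53 were among those not analysed here. The test was limma 3.58.1 (lmFit, then eBayes; R 4.3.3), two-sided, on 4 residual plus 1.96 prior degrees of freedom; p-values were adjusted by Benjamini-Hochberg over 45037 probe sets and the threshold was 0.05. In simulated data with 200 changed probe sets among 45037, this recovered 10% at log2 differences of 1 and -1 and 48% at 2 and -2. The simulated noise took each probe set's observed SD as its true one. Recovery depends on how many probe sets change, and 7067 had an unadjusted p under 0.05 by limma here. These percentages may therefore not carry over to the data. The small number of arrays limits the precision.

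All 32 members are named; each array is given for the 3 members of lowest p in a role group (all members of groups of 4 or fewer) and where probe sets differ in sign, and was added for others. Other pathway lists name the 2 genes of lowest p. Members, lists and settings were chosen with earlier results of these data known. Same-numbered arrays of the 2 groups deviated with correlations of 0.0136, 0.0221 and -0.00963, so the numbers were not treated as pairs. Alternatives were other variance priors, array weights, a replicate block, scalings, offsets, filters, probe set means and leaving out each array; separation under other scalings was added after the data were seen.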

Additional observations from a re-analysis of the deposited data

How the results depend on the processing

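Of the 32 members, 23 kept their direction under every alternative fitted and 9 turned under at least 1; 1, Nolc1, passed the threshold under any, after median centring (log2 1.11, adjusted p = 0.0441). The direction turned after median centring for Polr1a (0.19), Npm1 (0.19), Nop10 (0.17) and Noc2l (0.21), and after quantile normalization for Npm1 (0.10). It turned with the mean of all probe sets for Ncl (-0.10), Wdr12 (-0.30), Nop16 (-0.04) and Noc3l (-0.11), and Nip7, counted among the 23, went from 0.95 to 0.00 there. Leaving out single arrays turned Dkc1 (-0.04), Noc2l (0.01) and Noc3l (-0.12) without control replicate 1, Polr1a (0.18), Npm1 (0.05) and Nop10 (0.05) without control replicate 3, and Npm1 (0.01), Nop10 (0.01) and Noc2l (0.04) without knockout replicate 1. Over left-out arrays Polr1a ranged from -0.31 to 0.18, Npm1 from -0.22 to 0.05, Nop10 from -0.20 to 0.05, Noc2l from -0.18 to 0.04, Dkc1 from -0.04 to 0.29 and Noc3l from -0.12 to 0.19.

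The count of members that were higher ranged from 27 to 31 over left-out arrays, was 32 after median centring and 24 with probe set means. The median of all genes was 0.22 after median centring and -0.06 with probe set means. The median difference ranged from 0.31 to 0.42 over left-out arrays and was 0.62 after median centring. Members higher at an unadjusted p under 0.05 numbered 21 after median centring, 4 with an offset of 1, 7 without the dimmer 50% of probe sets, and 5 to 11 over left-out arrays, against 12. Over all probe sets, in either direction, limma gave such a p to 8749, 6069, 4683 and 5340 to 7141 in the same order, against 7067. The share of all genes higher at that level was not taken under these settings. Members past the adjusted threshold numbered 1 after median centring. Over all probe sets 343 passed, against 693 after median centring, 42 with an offset of 1, 712 and 763 without the dimmest 25% and dimmer 50%, and 0 to 10 over left-out arrays. With the replicate block limma called 0, cell type markers included, where 6752 had an unadjusted p under 0.05, and 9 members were higher at that level; the numbers were not shown to pair the arrays. Without knockout replicates 1 and 3, limma likewise called 0, with 6219 and 5340 at an unadjusted p under 0.05. Some of these settings use fewer arrays or probe sets, and the causes of the changes were not tested.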
